A study of Mus musculus with 20 samples.

Results

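The mouse genes of cytochrome P450 families 1 to 3 were followed in liver RNA of wild-type and STING knockout mice with and without an obstructed bile duct. Entries of the deposited expression table with a symbol of the form Cyp1, Cyp2 or Cyp3, a subfamily letter and a number were taken, with 1 exception. This gave 57 genes in 16 subfamilies on 8 chromosomes, out of 54532 entries. The study made 20 libraries of polyadenylated liver RNA in 4 groups of 5. Wild-type mice and STING knockout mice had either sham surgery or bile duct ligation (BDL) for 7 days. Age, strain, sex and the construction of the knockout allele are not given in the sources used here. The series design also names mice deficient in Abcb4, which were not analysed here. Nothing in the labels says that each library of a group came from a separate animal. The p-values therefore cover no more than the library-to-library spread, part of which may be technical.

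Cytochrome P450 enzymes are heme proteins, most of them anchored in the endoplasmic reticulum, that insert 1 oxygen atom into a substrate with electrons passed on by the reductase Por and by cytochrome b5. Families 1 to 3 hold the main drug-oxidizing enzymes of the hepatocyte, and several members also act on steroids, bile acids, retinoids and arachidonic acid. Many of their genes lie in tandem clusters of close paralogs. Many are transcribed in only some zones of the liver lobule, are induced through the receptors AHR, CAR and PXR, or differ between the sexes in the mouse under the control of growth hormone. Gene positions are those of GENCODE M21 on GRCm38, where the measured Cyp2a, Cyp2b, Cyp2f and Cyp2g genes lie on chromosome 7, Cyp2c on 19, Cyp2d on 15, Cyp2j on 4 and Cyp3a on 5.

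Tmem173, the gene of STING, ranged from 0.843 to 2.34 FPKM in wild-type and from 0.588 to 1.06 FPKM in knockout libraries after sham surgery, and these ranges overlapped. After ligation it ranged from 0.638 to 2.57 FPKM in knockout and from 2.60 to 4.61 FPKM in wild type. The deleted stretch is not given, so these values check the labels only in part. A library held about 14940000 to 20900000 assigned fragments, and a single fragment corresponded to 0.0467 to 0.0734 FPKM for a gene of 1 kilobase. Each library carried either Y-linked transcripts (Ddx3y, Eif2s3y, Kdm5d and Uty, together 21.2 to 32.4 FPKM in 10 libraries and at most 0.306 in the others) or Xist (30.8 to 52.6 FPKM in the other 10 and at most 0.115 elsewhere). Libraries with Y-linked transcripts numbered 2 in sham wild type, 3 in sham knockout, 3 in ligated wild type and 2 in ligated knockout, so the mix differed between the groups compared. Every group held both types, so its libraries did not all come from the same animal. Ligated knockout libraries BDL_KO_2359 and BDL_KO_2248 stood apart. Their summed cholangiocyte markers were 83.1 and 63.0 FPKM against 333 to 561 in the other 3 libraries of the group, and their summed stellate cell and fibroblast markers 14.2 and 7.40 against 62.0 to 89.4. Several of the counts that involve this group are also given without them.

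Of the 57 genes, 40 from 12 subfamilies reached 0.5 FPKM in at least 5 libraries and were tested. The other 17 were too low. Cyp2b19, Cyp2b23, Cyp2c66, Cyp2j7, Cyp2j11, Cyp2j12 and Cyp2w1 were listed at 0 in all 20 libraries. Cyp2c65, Cyp2d12, Cyp2j8, Cyp2j13, Cyp2s1, Cyp2t4 and Cyp3a57 were detected but stayed under 0.5 FPKM in every library, with at most 3 fragments of Cyp2j13 and at most 2 of Cyp2c65. Cyp1a1, Cyp1b1 and Cyp2d34 reached 0.5 FPKM in 1 to 4 libraries, with highest values of 0.982, 0.571 and 0.538 FPKM. Cyp1a1, the classical target of the aryl hydrocarbon receptor, was thus near the limit of measurement, while its neighbour Cyp1a2 was abundant.

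FPKM is per length, so levels can be set side by side between genes. The 57 genes together summed to 9669 ± 705 FPKM (SD, n = 5) in wild type and 10520 ± 885 in the knockout after sham surgery, which was 2.34% and 2.31% of all FPKM. After ligation the sum was 3741 ± 810 FPKM in wild type and 5881 ± 1795 in knockout, or 1.13% and 1.43% of all FPKM. In every ligated library the sum lay below the lowest sham library, which held 8980 FPKM in wild type and 9078 in knockout, since the highest ligated values were 4747 and 8597. A single gene, Cyp2e1, made up 32.0% ± 2.15 of the sum in sham wild type and 19.3% ± 3.64 in ligated wild type. The Cyp3a subfamily went the other way, from 11.9% ± 1.34 to 28.3% ± 4.35 of the sum. Bulk RNA was measured, and fewer cells of a type and less RNA per cell cannot be told apart.

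Levels were also summed within each subfamily. In wild type the Cyp2c total went from 2225 ± 662 FPKM (SD, n = 5) to 498 ± 112 with ligation, and the ranges did not overlap, at 1450 to 3023 against 379 to 619. The Cyp2d total went from 1450 ± 369 to 822 ± 149.9 FPKM, with the highest ligated library at 1041 and the lowest sham library at 1125. The Cyp2j total, most of it Cyp2j5, went from 280.1 ± 21.6 to 167 ± 13.9 FPKM, again without overlap. The Cyp3a total was 1144 ± 70.8 FPKM in sham and 1038 ± 173 in ligated wild type, and its ranges overlapped. In the knockout the Cyp2c total went from 2502 ± 712 to 954 ± 351 FPKM, again without overlap, and the Cyp3a total from 1224 ± 170.3 to 1284 ± 176. The difference of mean log2 totals for Cyp3a in wild type, -0.15, turned to 0.17 when values were rescaled to TPM and to 0.13 in the libraries with Xist. The Cyp2a and Cyp2b totals spread too widely within groups for such a statement, with Cyp2b between 1.84 and 424 FPKM in sham wild type. The Cyp2b spread followed the library type, described further on, and the Cyp2a spread did so except in the ligated knockout. The sham totals of Cyp2c, Cyp2d and Cyp3a separated by type as well. In sham wild type Cyp2c was 1450 to 1634 FPKM with Y-linked transcripts and 2463 to 3023 with Xist. Cyp2d was 1748 to 1943 FPKM with Y-linked transcripts and 1125 to 1219 with Xist. These group means thus depend on the mix of types.

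**Figure D1:**
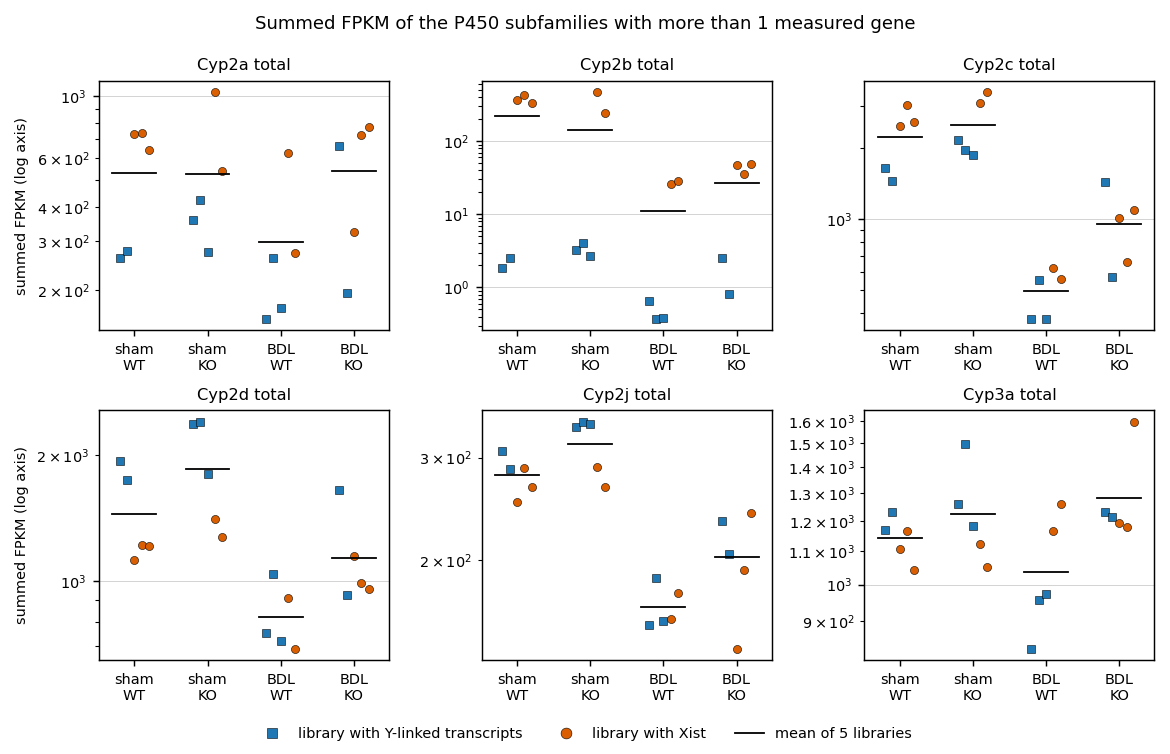
Summed FPKM (log axis) of the 6 subfamilies with more than 1 measured gene, by group, with 1 point per library and a line at the mean of 5 libraries. Squares are libraries with Y-linked transcripts and circles are libraries with Xist; the Cyp2c, Cyp2d and Cyp2j totals of ligated wild-type libraries lie below all sham wild-type libraries, the Cyp3a totals overlap, and the Cyp2b totals separate by library type.

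How far paralogs could exchange reads was read from their transcripts in GENCODE M21. Of the 57 genes, 34 shared at least 1 window of 100 bases with another gene, and 8 shared over 10% of their windows. These were Cyp2c69 (35.4%, mostly with Cyp2c40), Cyp2c40 (34.4%), Cyp2c67 (23.7%), Cyp2c68 (19.8%), Cyp2d11 (12.2%), Cyp2a5 (12.1%), Cyp2d10 (11.7%) and Cyp2a4 (11.2%, all with Cyp2a5). Values of these 8 genes are uncertain to the extent that reads were divided among them. The sources used here do not give how the authors' counting treated reads that match several genes. Cyp2e1, Cyp1a2 and Cyp2f2 do not belong to these 8.

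The first comparison asks which of these genes changed with 7 days of bile duct ligation in wild-type liver. Of the 40 measured genes, 20 were lower and 0 higher (limma, Benjamini-Hochberg adjusted p under 0.05), where 17.5% of all 14059 genes tested were called lower and 18.1% higher. Their median difference in log2(FPKM + 0.5) was -1.08, against -0.02 for all genes tested. Differences ranged from -5.24 for Cyp2c69 to 0.27 for Cyp2j6, 36 of 40 had a negative sign and 14 of the called genes were lower by at least 1 log2 unit. In 16 of 40 genes all ligated libraries lay below all sham libraries, against 15.1% of all genes tested. Called lower were 8 of 12 Cyp2c genes, 4 of 6 Cyp2d, 2 of 3 Cyp2j, 2 of 6 Cyp3a, and the single measured genes of Cyp1a, Cyp2e, Cyp2f and Cyp2r. None of the 4 Cyp2a and 3 Cyp2b genes passed the test in this fit, and at unadjusted p under 0.05 22 of the 40 genes passed. With the library type as a covariate 24 were lower, among them Cyp2b9, Cyp2b10 and Cyp2b13. In that fit 2580 of all 14059 genes tested were lower and 2578 higher. Rescaled to TPM, which moved the median of all genes tested to 0.25 in wild type and to 0.13 in the knockout, 17 were lower and 1 higher in wild type, where 4616 of all 14059 genes tested were higher and 1017 lower.

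Markers of hepatocyte zones and of other cells moved with ligation too. All 8 pericentral hepatocyte markers, none a P450 gene, fell in wild type (median -1.40; summed level 1273 to 1781 FPKM in sham and 258 to 702 in ligated libraries), with Rgn at -2.03 ± 0.25 and the glutamine synthetase gene Glul at -1.43 ± 0.37. Of 6 periportal markers 3 fell and 1 rose. Of 10 general hepatocyte markers 3 fell, Alb, Ttr and Serpina1c, and 1 rose, Hpx, with a summed level of 47870 to 67910 FPKM in sham and 36800 to 45430 in ligated libraries. All 6 measured cholangiocyte markers rose, from a summed 19.9 to 26.7 FPKM to 224 to 611, and 7 of 8 monocyte and macrophage markers rose, from 115 to 185 FPKM to 348 to 450. Of 5 endothelial markers 4 fell, and of 7 stellate cell and fibroblast markers 3 rose. Their part in the P450 results was not tested.

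Cyp2e1 (chr7:140763739-140774987, plus strand), which oxidizes ethanol and acetone and activates paracetamol, was the most abundant of the 57 genes. Values are given in the order of the library titles, in which the libraries with Y-linked transcripts come first in each group. It measured 2826, 3175, 3004, 3212 and 3219 FPKM in sham wild type and 404, 993, 567, 1054 and 682 in ligated wild type. All ligated libraries lay far below all sham libraries, a difference of -2.15 ± 0.37 log2 units ± SE (limma adjusted p = 1.84e-04, n = 5 per group). In the knockout it measured 2992, 3174, 2736, 3226 and 3037 FPKM after sham surgery and 2645, 516, 1883, 527 and 878 after ligation. Ligated knockout libraries were lower than every sham library but spread over a wide range, with BDL_KO_2359 close to the sham level, and the difference was -1.55 ± 0.37 (adjusted p = 0.00498). Without BDL_KO_2359 and BDL_KO_2248 it was -2.29.

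Cyp1a2 (chr9:57676937-57683703, minus strand), an AHR target that demethylates caffeine and like Cyp2e1 is known for pericentral expression, fell too. It measured 386, 313, 389, 341 and 261 FPKM in sham and 24.1, 80.3, 28.7, 57.8 and 78.0 in ligated wild type, with no overlap, a difference of -2.79 ± 0.44 (limma adjusted p = 7.88e-05). In the knockout it measured 500.4, 468, 342, 458 and 328 FPKM after sham surgery and 288, 101, 57.7, 105 and 424 after ligation. The ligated knockout libraries fell into 3 low and 2 high values, of which BDL_KO_2371 lay within the sham range, and the difference was -1.46 ± 0.44 (adjusted p = 0.0198).

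Cyp2f2 (chr7:27119909-27133660, plus strand), which bioactivates naphthalene and is known for periportal expression, fell as well. Sham wild-type libraries held 524, 481, 295, 312 and 260.3 FPKM and ligated wild-type libraries 55.8, 127, 88.5, 118 and 136. No ligated library reached the sham range, and the difference was -1.84 ± 0.29 (limma adjusted p = 9.23e-05). Sham knockout libraries held 634, 572, 513, 362 and 340.4 FPKM and ligated knockout libraries 426, 211, 155, 186 and 253. These ranges overlapped through BDL_KO_2359, and the difference was -1.02 ± 0.29 (adjusted p = 0.0157).

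**Figure D2:**
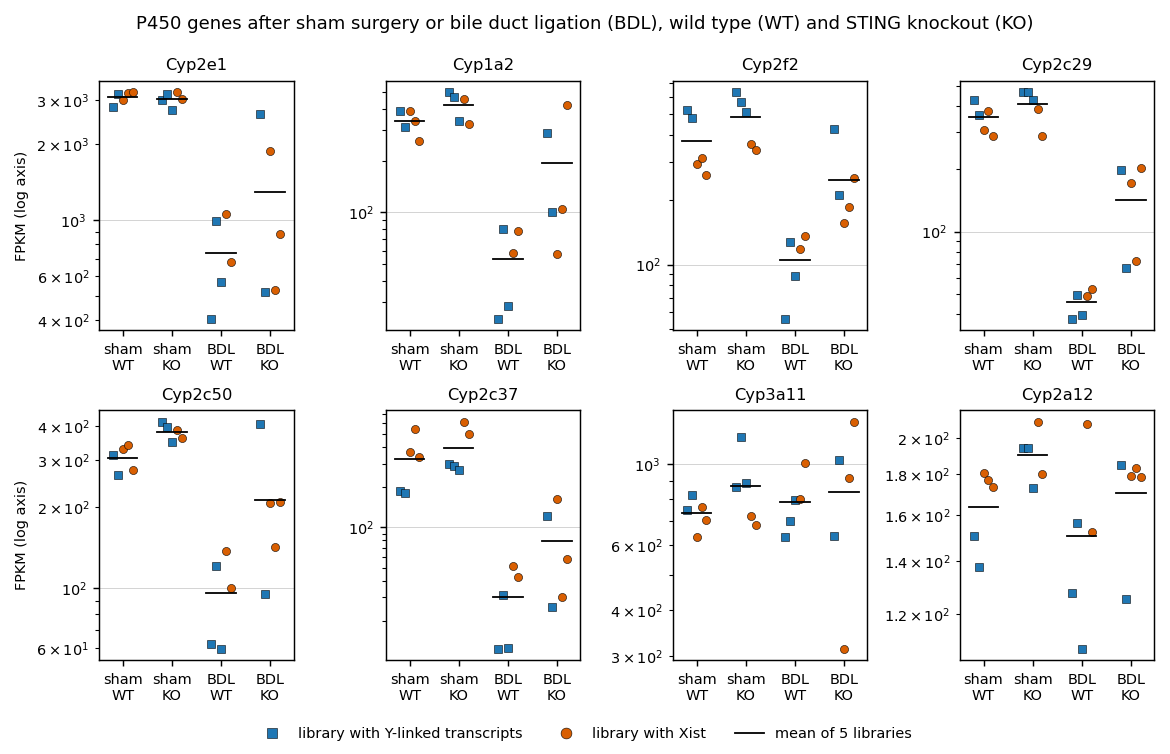
FPKM (log axis) of 8 abundant P450 genes by group, with 1 point per library and a line at the mean of 5 libraries. Squares are libraries with Y-linked transcripts and circles are libraries with Xist; Cyp2e1, Cyp1a2, Cyp2f2, Cyp2c29, Cyp2c50 and Cyp2c37 are lower in all ligated wild-type than in all sham wild-type libraries, while Cyp3a11 and Cyp2a12 overlap.

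The Cyp2c genes, several of which encode epoxygenases of arachidonic acid, held the largest falls. Cyp2c29 (chr19:39269405-39330713, plus strand) measured 429.6, 364, 309, 379.5 and 289 FPKM in sham and 38.0, 49.7, 40.0, 48.8 and 52.9 in ligated wild type. The ligated libraries were low and close to each other, and the difference was -2.93 ± 0.27 (limma adjusted p = 4.51e-07). In the knockout Cyp2c29 measured 466, 468, 429, 389.6 and 288 FPKM after sham surgery and 197, 66.7, 171, 72.4 and 203 after ligation, a difference of -1.66 ± 0.27 (adjusted p = 2.98e-04) with no overlap.

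Cyp2c37 measured 188, 179, 366, 547 and 334 FPKM in sham and 12.5, 31.4, 12.5, 51.5 and 42.4 in ligated wild type. All ligated libraries were lower, by 3.51 ± 0.51 log2 units (limma adjusted p = 4.25e-05). In the knockout it measured 300, 289, 270, 615 and 497 FPKM and, after ligation, 122, 25.4, 163, 30.5 and 58.5, again without overlap, a difference of -2.58 ± 0.51 (adjusted p = 0.00146). Cyp2c50 and Cyp2c54, from the same cluster, fell as well. Cyp2c50 measured 314, 263, 328, 341 and 275 FPKM in sham and 62.4, 122, 59.7, 137 and 99.9 in ligated wild type, and 416, 399, 349, 386 and 361 after sham surgery and 408, 95.7, 207, 142 and 209.7 after ligation in the knockout. Cyp2c54 measured 185, 169, 270.4, 268 and 204 FPKM in sham and 27.1, 50.5, 26.1, 57.0 and 35.8 in ligated wild type, and 265, 252, 223, 256 and 304 after sham surgery and 275, 27.6, 125, 46.5 and 74.9 after ligation in the knockout. For both genes every wild-type ligated library was below every wild-type sham library, whereas BDL_KO_2359, at 408 and 275 FPKM, stayed within the sham knockout range. The wild-type differences were -1.73 ± 0.29 for Cyp2c50 and -2.51 ± 0.42 for Cyp2c54 (limma adjusted p = 1.56e-04 and 1.44e-04), and the knockout differences -1.01 ± 0.29 and -1.68 ± 0.42 (adjusted p = 0.0162 and 0.00676).

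Cyp2c67 fell with ligation in both genotypes. It measured 169.9, 166, 78.2, 87.8 and 118 FPKM in sham and 39.6, 43.8, 63.7, 37.5 and 55.2 in ligated wild type, a difference of -1.32 ± 0.36 (limma adjusted p = 0.00716). In the knockout it measured 209, 176, 222, 81.1 and 98.2 FPKM and, after ligation, 47.2, 91.2, 18.7, 44.3 and 52.4, a difference of -1.68 ± 0.36 (adjusted p = 0.00244). The groups did not overlap in wild type, and in the knockout BDL_KO_2365, at 91.2 FPKM, lay above the lowest sham library. Cyp2c68 was lower in wild type (-1.57 ± 0.38, adjusted p = 0.00313). Cyp2c23, Cyp2c38, Cyp2c39 and Cyp2c55 did not pass the test in either genotype, with wild-type differences of -0.56, -0.35, 0.02 and -0.61.

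Among the Cyp2d genes the fall was steepest for one of the least abundant. Cyp2d40 measured 43.9, 36.5, 26.2, 28.3 and 37.6 FPKM in sham and 4.69, 4.39, 3.49, 5.50 and 8.00 in ligated wild type, and 57.1, 47.3, 46.9, 31.6 and 34.6 after sham surgery and 9.09, 5.85, 10.5, 5.98 and 12.2 after ligation in the knockout. In both genotypes all ligated libraries lay below all sham libraries, with differences of -2.64 ± 0.23 and -2.28 ± 0.23 (limma adjusted p = 2.70e-07 and 2.83e-06). Cyp2d26, the most abundant on average, measured 510.1, 475, 537, 574 and 645 FPKM in sham and 298, 340.4, 262, 442 and 321 in ligated wild type, and 678, 644, 516, 689 and 582 after sham surgery and 567, 277, 481, 482 and 412 after ligation in the knockout. Its differences were smaller, -0.73 ± 0.17 and -0.52 ± 0.17 (adjusted p = 0.00285 and 0.0354), and the knockout groups overlapped. Cyp2d10 differed by -0.79 ± 0.18 in wild type and -0.75 ± 0.18 in the knockout, both past the threshold, and Cyp2d22 by -0.61 ± 0.19 in wild type.

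Of the Cyp2j genes, Cyp2j5, an arachidonic acid epoxygenase of liver and kidney, measured 279.9, 259, 226, 265 and 245 FPKM in sham and 124, 156, 130.1, 133 and 155 in ligated wild type, and 312, 319.7, 317, 267 and 249 after sham surgery and 205, 176, 119, 171 and 213 after ligation in the knockout. The ligated libraries were lower than the sham libraries of their genotype without overlap, by 0.87 ± 0.14 and 0.75 ± 0.14 log2 units (limma adjusted p = 9.75e-05 and 8.17e-04). Cyp2j6 lay between 15.6 and 29.1 FPKM in the 20 libraries and did not pass the test in either genotype. Rescaled to TPM, it was called higher in wild type. Cyp2r1 (chr7:114549682-114562972, minus strand), a vitamin D hydroxylase of the liver, measured 9.11, 8.61, 7.16, 7.03 and 6.82 FPKM in sham and 3.64, 5.37, 4.95, 5.36 and 5.40 in ligated wild type, and 7.35, 6.05, 7.69, 4.78 and 5.65 after sham surgery and 11.8, 7.31, 8.02, 6.45 and 7.29 after ligation in the knockout. It was lower in all ligated wild-type libraries (-0.60 ± 0.15, adjusted p = 0.00446), while the knockout groups differed by 0.34 ± 0.15 (adjusted p = 0.110).

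The most abundant Cyp3a gene, Cyp3a11, hydroxylates steroids and bile acids and is the main target of PXR in mouse liver. It measured 751, 821, 632, 766 and 704 FPKM in sham and 631, 699.8, 799, 802 and 1004 in ligated wild type, and 867, 1183, 889, 723 and 684 after sham surgery and 637, 1022, 315, 915 and 1300 after ligation in the knockout. The ranges overlapped in both genotypes, and the differences of 0.087 ± 0.27 and -0.18 ± 0.27 did not pass the test (limma adjusted p = 0.835 and 0.679). Cyp2a12, which re-hydroxylates secondary bile acids, differed by -0.15 ± 0.15 and -0.17 ± 0.15 (adjusted p = 0.481 and 0.442). Cyp3a25 was lower in wild type (-0.97 ± 0.30, adjusted p = 0.0172) and Cyp3a13 passed the test in neither genotype, with 0.22 ± 0.38 and 0.78 ± 0.38. In the ligated knockout Cyp3a13 reached 458 FPKM in BDL_KO_2248 and 182 in BDL_KO_2359 against 53.5 to 92.4 in the other 3 libraries.

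In the knockout 12 of the 40 genes were lower with ligation and 0 higher (limma), where 12.9% of all genes tested were called lower and 12.3% higher. The median difference was -0.73, against -0.01 for all genes tested, 15 genes passed at unadjusted p under 0.05, and 6 of 40 did not overlap, against 5.72% of all genes. All 12 genes were among the 20 of wild type, which makes 60% of the wild-type list and 100% of the knockout list. The overlap over all genes tested is not given here, so these shares have no background. The groups compared shared no library, but both comparisons used a spread estimated over all 20 libraries, so the lists are not independent. The 8 genes called in wild type alone were Cyp2c40, Cyp2c68, Cyp2c69, Cyp2d22, Cyp2j9, Cyp2r1, Cyp3a25 and Cyp3a44; whether they differed between genotypes is a question for the interaction given below. In a fit with a mean for each group and library type, in which 20 of the 40 genes and 1574 of all 14059 were lower in the knockout, Cyp2c40, Cyp2c69 and Cyp3a44 were lower in knockout libraries with Xist. Without BDL_KO_2359 and BDL_KO_2248, 14 genes were lower and 1, Cyp2c55, was higher, where 2558 of all 14059 genes tested were lower and 2641 higher. Rescaled to TPM, 11 were lower and 2 higher, Cyp2r1 and Cyp3a13, where 675 of all genes were lower and 2118 higher. Of the pericentral markers 3 of 8 fell in the knockout (summed 495 to 1757 FPKM after ligation and 1431 to 1988 after sham surgery), and 6 of 8 without these 2 libraries; 5 of 6 measured cholangiocyte markers rose.

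**Figure D3:**
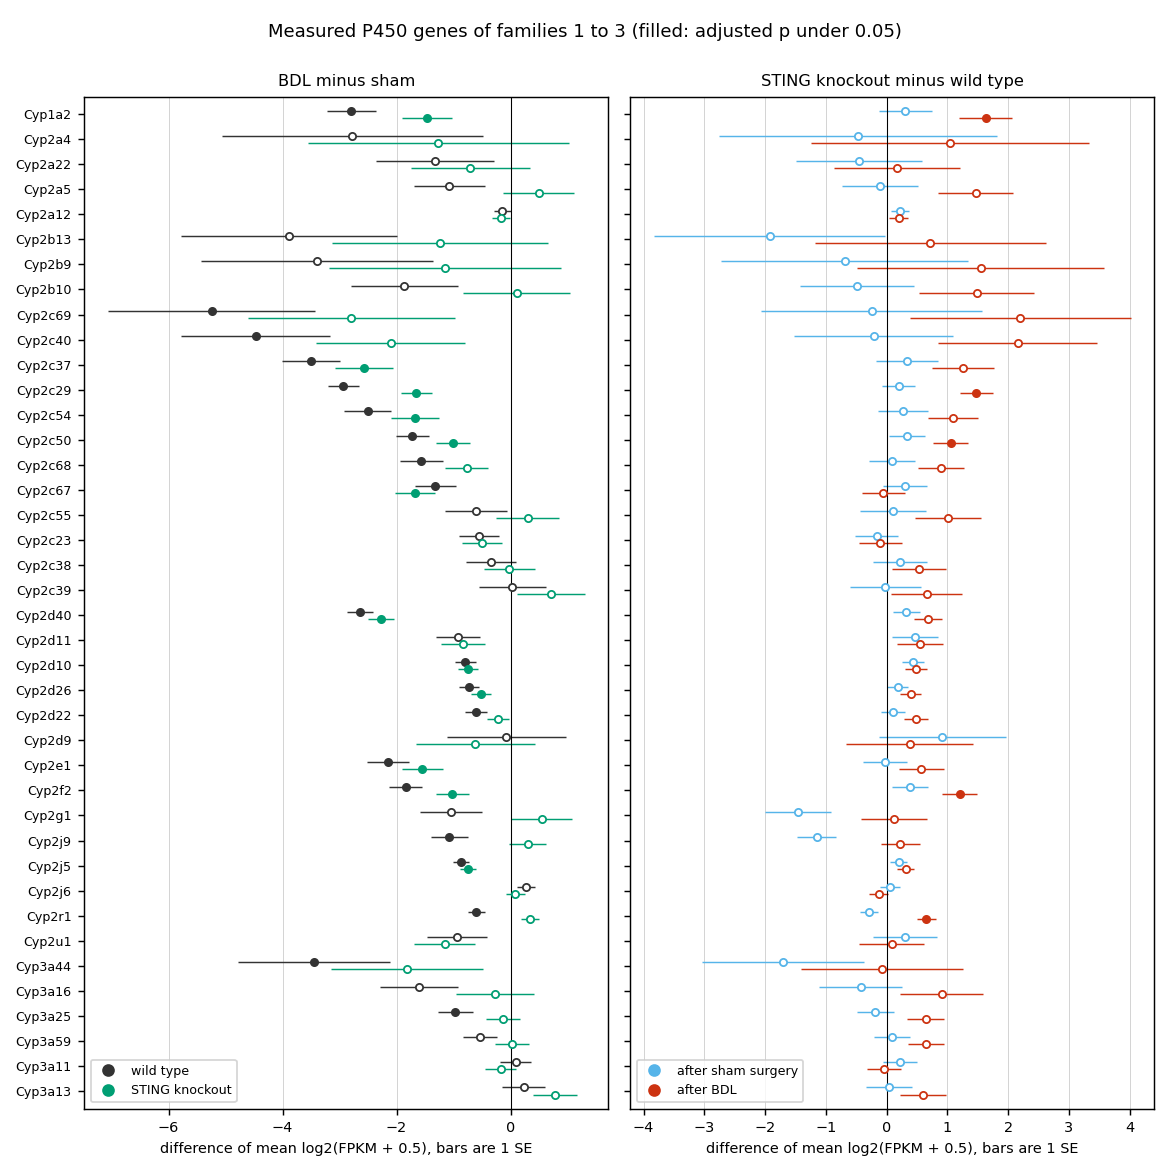
Differences of mean log2(FPKM + 0.5) with 1 SE for the 40 measured genes, ligation against sham on the left and knockout against wild type on the right, with filled points where the limma adjusted p is under 0.05. Filled points on the left lie below 0 in both genotypes, and on the right only 5 genes after ligation are filled.

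After sham surgery no difference between the genotypes passed the threshold in the 40 genes. The count was 0 with limma on log2 values and 0 with voom on recovered fragments, 3 genes passed at unadjusted p under 0.05, and 1.31% and 1.66% of all genes tested were called higher and lower. The 3 genes were Cyp2j9 (-1.15 ± 0.32, adjusted p = 0.0600), Cyp2g1 and Cyp2d10. Cyp2j9 measured 4.19, 4.83, 3.96, 3.44 and 4.59 FPKM in wild type and 1.49, 1.36, 1.18, 2.13 and 2.05 in the knockout, without overlap, and was called when values were rescaled to TPM or total fragments or when only these 2 groups were fitted. Cyp2g1, known from the olfactory mucosa, measured 0.731, 0.156, 8.20, 3.95 and 2.77 FPKM in wild type and 0.201, 0.133, 0.301, 1.30 and 0.493 in the knockout, with overlap. After ligation Cyp2g1 measured 0.329, 0.413, 0.501, 1.72 and 1.15 FPKM in wild type and 1.43, 0.427, 0.240, 0.919 and 1.70 in knockout. It was under 0.5 FPKM in 1 to 4 libraries of each group and passed the test in none of the comparisons.

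After ligation 5 of the 40 genes were higher in the knockout and 0 lower, where 3.46% of all genes tested were called higher and 5.37% lower. The median difference was 0.65, against 0.01 for all genes tested, 35 of 40 had a positive sign and 16 passed at unadjusted p under 0.05. This comparison shares its ligated libraries with the ligation comparisons above, so the 2 kinds of values are not independent. The 5 genes were Cyp1a2 (1.63 ± 0.44, limma adjusted p = 0.0256), Cyp2c29 (1.47 ± 0.27, 0.00216), Cyp2f2 (1.20 ± 0.29, 0.0153), Cyp2c50 (1.05 ± 0.29, 0.0296) and Cyp2r1 (0.65 ± 0.15, 0.0117). By the values given above, all knockout libraries lay above all wild-type libraries for Cyp2c29, Cyp2f2 and Cyp2r1, 3 of 40 against 2.17% of all genes tested, while Cyp1a2 and Cyp2c50 overlapped. After sham surgery the knockout differences were 0.30 for Cyp1a2, 0.20 for Cyp2c29, 0.39 for Cyp2f2, 0.33 for Cyp2c50 and -0.29 for Cyp2r1. None of these sham differences passed the threshold, but Cyp2c50 was already higher there without overlap.

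These 5 calls moved with single libraries and with the fit. Without BDL_KO_2365 there were 14 calls, where 734 of all genes tested were higher and 1086 lower. Without BDL_Wt_2233 there were 2 (170 and 455 of all genes) and without BDL_KO_2359 also 2 (197 and 435). Without BDL_Wt_2236 (182 and 436) or BDL_KO_2371 (283 and 586) there were 3. With only the ligated groups in the fit the count was 0, where 56 of all genes tested were higher and 227 lower. Within libraries with Y-linked transcripts alone it was 1, Cyp2f2, where 79 of all genes were higher and 229 lower. Within libraries with Xist alone it was 0, but there 0 of all genes were higher and 8 lower, so that count says little about the 5 genes. Without both BDL_KO_2359 and BDL_KO_2248 Cyp1a2, Cyp2c29 and Cyp2f2 remained, Cyp2c50 and Cyp2r1 did not, and Cyp2c55 and Cyp2j5 were called. Rescaled to TPM, which moved the median of all genes tested from 0.01 to -0.22 in this comparison, 4 of the 5 genes were called and Cyp2r1 was not. Hepatocyte genes outside the P450 families were higher in the ligated knockout as well, with 3 of 10 general hepatocyte markers (Cps1, Ttr and Ass1), Rgn of the pericentral markers and 2 of 6 periportal markers (Gls2 and Sdhd) called. The endothelial markers Clec4g and Kdr, 2 of 5, were also higher, and 2 of 6 cholangiocyte and 3 of 8 monocyte and macrophage markers were lower. Without BDL_KO_2359 and BDL_KO_2248 Ass1 was the single gene of the general, pericentral and periportal hepatocyte lists called higher and Fgb the single one lower, 0 cholangiocyte markers and 1 monocyte marker, Ccr2, were lower, and 5 of 5 endothelial markers were higher. Their part in the 5 calls was not tested.

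Whether ligation acted differently in the 2 genotypes was tested by the interaction. None of the 40 genes passed (limma count 0, voom count 0, 4 genes at unadjusted p under 0.05, with 0.156% of all genes tested called higher and 0.22% lower). The 4 genes were Cyp2r1 (0.94 ± 0.21, adjusted p = 0.0692), Cyp2c29 (1.28 ± 0.38, 0.165), Cyp2j9 (1.37 ± 0.45, 0.203) and Cyp1a2 (1.33 ± 0.62, 0.383). Cyp2r1 was called with library type as a covariate (1.03, adjusted p = 0.041). The median over the 40 genes was 0.76 and 34 had a positive sign. The SEs of the interaction ranged from 0.20 to 3.24 log2 units over these genes, and a difference that misses the threshold does not show that the genotypes acted alike.

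The library types differed widely in several subfamilies. Within both sham groups, 14 of the 40 genes were higher in all libraries with Xist than in all libraries with Y-linked transcripts, against 4.83% of all genes tested. These were Cyp2a4, Cyp2a22, Cyp2b9, Cyp2b10, Cyp2b13, Cyp2c37, Cyp2c38, Cyp2c39, Cyp2c40, Cyp2c68, Cyp2c69, Cyp2g1, Cyp3a44 and Cyp3a59. In the other direction 8 genes separated, Cyp2c55, Cyp2c67, Cyp2d9, Cyp2d10, Cyp2f2, Cyp2j6, Cyp2r1 and Cyp2u1, against 5.69% of all genes. The library types were defined here from transcripts, with 2 or 3 libraries of each type in a group, and these patterns carry no test. Cyp2a4, Cyp2b9, Cyp2b13 and Cyp3a44 are known as female-biased and Cyp2d9 as male-biased genes of mouse liver.

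Upstream sequences are shown for 8 genes of the Cyp2a, Cyp2b and Cyp2c subfamilies because some close paralogs among them differed in their relation to library type. The RefSeq table of promoters (GRCm38.p6) held 49 of the 57 genes, and each sequence covers the 250 bases before the RefSeq start of the gene, which need not be its GENCODE M21 start, 5′ to 3′, with matches of CAAAGTC in capitals. CAAAGTC lies within the motif known for HNF4A, a nuclear receptor of hepatocytes. Cyp2a4 (testosterone hydroxylase, chr7:26306942-26307191, plus strand) separated by library type in every group, whereas the types overlapped for its paralog Cyp2a5 (coumarin hydroxylase, chr7:26835089-26835338, plus strand) in 3 of the 4 groups, although 98.4% of 249 aligned bases were identical and 4 differed. In the ligated knockout the Cyp2a4 types were apart only by 0.5889 against 0.5915 FPKM.
Cyp2a4: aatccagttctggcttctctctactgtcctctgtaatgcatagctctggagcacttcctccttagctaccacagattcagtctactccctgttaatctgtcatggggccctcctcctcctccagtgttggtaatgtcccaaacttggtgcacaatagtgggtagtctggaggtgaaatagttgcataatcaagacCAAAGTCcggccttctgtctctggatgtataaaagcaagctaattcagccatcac
Cyp2a5: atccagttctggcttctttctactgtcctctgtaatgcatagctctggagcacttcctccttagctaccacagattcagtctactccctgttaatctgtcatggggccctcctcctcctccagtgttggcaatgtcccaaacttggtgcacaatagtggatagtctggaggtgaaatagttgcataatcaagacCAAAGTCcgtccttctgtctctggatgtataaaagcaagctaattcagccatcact
Cyp2b9 (chr7:26173159-26173408, plus strand) and Cyp2b13 (chr7:26061245-26061494, plus strand) were at or near 0 in libraries with Y-linked transcripts and were identical in 99.2% of 250 bases, with 2 differing. Cyp2b10 (chr7:25897408-25897657, plus strand), the main CAR target, separated less widely and was identical to Cyp2b9 in 71.7% of aligned bases.
Cyp2b9: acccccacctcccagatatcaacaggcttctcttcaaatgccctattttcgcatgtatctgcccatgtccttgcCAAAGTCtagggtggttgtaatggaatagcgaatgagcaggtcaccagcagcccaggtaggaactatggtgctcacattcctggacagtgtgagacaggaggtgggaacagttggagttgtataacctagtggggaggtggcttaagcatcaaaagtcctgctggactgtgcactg
Cyp2b13: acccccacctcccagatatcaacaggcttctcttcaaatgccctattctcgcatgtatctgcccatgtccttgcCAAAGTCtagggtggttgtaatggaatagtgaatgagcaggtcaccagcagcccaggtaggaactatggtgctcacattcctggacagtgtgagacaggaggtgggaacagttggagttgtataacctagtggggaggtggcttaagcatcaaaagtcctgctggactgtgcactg
Cyp2b10: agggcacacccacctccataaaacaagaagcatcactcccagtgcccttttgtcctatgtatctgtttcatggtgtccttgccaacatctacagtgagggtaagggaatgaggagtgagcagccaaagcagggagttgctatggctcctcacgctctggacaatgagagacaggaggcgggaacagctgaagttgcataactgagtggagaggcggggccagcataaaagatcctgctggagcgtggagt
Cyp2c69 (chr19:39886770-39887019, minus strand) and Cyp2c40 (chr19:39812815-39813064, minus strand) were higher in libraries with Xist and identical in 98.6% of 220 aligned bases. Cyp2c67 (chr19:39649043-39649292, minus strand) was higher in libraries with Y-linked transcripts and identical to Cyp2c69 in 93% of aligned bases.
Cyp2c69: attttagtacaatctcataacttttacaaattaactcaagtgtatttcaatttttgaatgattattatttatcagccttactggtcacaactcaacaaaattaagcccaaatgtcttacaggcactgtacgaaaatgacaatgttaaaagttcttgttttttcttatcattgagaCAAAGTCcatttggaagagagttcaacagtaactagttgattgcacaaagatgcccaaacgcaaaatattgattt
Cyp2c40: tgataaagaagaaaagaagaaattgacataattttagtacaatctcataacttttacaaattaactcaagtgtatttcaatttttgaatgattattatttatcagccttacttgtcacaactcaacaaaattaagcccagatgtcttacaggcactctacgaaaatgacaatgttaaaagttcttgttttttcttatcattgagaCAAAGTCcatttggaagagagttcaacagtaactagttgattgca
Cyp2c67: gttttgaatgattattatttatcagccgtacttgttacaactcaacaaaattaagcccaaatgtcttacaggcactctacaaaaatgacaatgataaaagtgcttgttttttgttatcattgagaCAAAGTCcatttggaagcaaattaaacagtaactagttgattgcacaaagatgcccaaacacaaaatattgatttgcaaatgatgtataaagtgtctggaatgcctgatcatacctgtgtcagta
CAAAGTC, searched on both strands, was found in 15 of the 49 upstream sequences (30.6%) and in 1170 of 27025 upstream sequences of the same length in the table (4.33%). The longer CAAAGTCCA, which contains it, was found in 7 of 49 (14.3%) against 0.451% of all, and TATAAA, on the plus strand only, in 17 of 49 (34.7%) against 8.94%. Paralogs share these bases by descent, so the 49 are not independent. The match of CAAAGTC was present in Cyp2a4 and in Cyp2a5, and in Cyp2c69 and in Cyp2c67, genes that differed in their relation to library type. It was absent from the printed bases of Cyp2b10 and present in Cyp2b9 and Cyp2b13, although all of these Cyp2b genes were higher in libraries with Xist.

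The levels show how sharp the separation was. Cyp2b9 measured 0.174, 0.892, 224, 249 and 175 FPKM in wild type and 2.15, 1.93, 1.89, 292 and 185 in the knockout after sham surgery, and 0.157, 0.0295, 0, 18.0 and 21.6 in ligated wild type and 0.676, 0, 27.8, 24.7 and 35.5 in ligated knockout. The libraries with Y-linked transcripts, first in each list, were at or near 0 throughout, and the libraries with Xist lost most of their level after ligation. Cyp2b13 was listed at 0 in 9 of 10 libraries with Y-linked transcripts, and its mean over the libraries with Xist went from 144 to 2.70 FPKM in wild type and from 99.6 to 3.79 in the knockout. Cyp2a4 went from 246 to 32.9 FPKM in wild-type and from 313 to 80.3 in knockout libraries with Xist, one of which, BDL_KO_2248, held only 0.592 FPKM. The separation of Cyp2a4 in the ligated knockout rests on that value, since BDL_KO_2365, with Y-linked transcripts, held 0.589 FPKM. Cyp2b10 was lower, with 5.94 to 19.6 FPKM in the sham wild-type libraries with Xist and 1.62 to 1.67 in the others.

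Cyp2a5 measured 111, 139.8, 345, 293 and 157 FPKM in sham and 28.9, 104, 63.2, 389 and 78.6 in ligated wild type, and 162, 225, 101, 384 and 121 after sham surgery and 475, 69.5, 144, 474 and 423 after ligation in the knockout. Its values ranged widely, overlapped between sham and ligated libraries in both genotypes, and overlapped between library types in the 3 groups other than sham wild type, and the differences with ligation, -1.08 ± 0.62 and 0.49 ± 0.62, did not pass the test (limma adjusted p = 0.193 and 0.599). Since up to 12.1% of its 100-base windows are shared with other genes, some of its reads could not be told from those of Cyp2a4.

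In wild type Cyp2c69 measured 3.99, 1.17, 368, 555 and 478 FPKM after sham surgery and 0.133, 0.188, 0.106, 4.26 and 7.03 after ligation. In the knockout it measured 15.1, 4.66, 5.76, 647 and 951 FPKM after sham surgery and 3.32, 0.304, 33.6, 6.99 and 23.95 after ligation. Cyp2c40 measured 10.4, 3.25, 246, 253 and 247 FPKM in sham and 0.520, 0.462, 0.779, 5.11 and 16.1 in ligated wild type, and 26.1, 10.3, 13.4, 215 and 354 after sham surgery and 7.24, 1.48, 28.6, 13.2 and 33.5 after ligation in the knockout. In both genes the sham libraries with Xist were high, all others were low, and after ligation both library types were lower in wild type. The differences over all 5 libraries were -5.24 ± 1.82 for Cyp2c69 and -4.47 ± 1.31 for Cyp2c40 in wild type (limma adjusted p = 0.0303 and 0.0118). Of the 100-base windows of Cyp2c69, 29.6% are shared with Cyp2c40, and of those of Cyp2c40, 22.1% with Cyp2c69, so their separate values are uncertain.

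In wild type Cyp3a44 measured 0, 0, 50.9, 33.6 and 48.4 FPKM after sham surgery and 0.150, 0, 0.0476, 0.111 and 0.739 after ligation. In the knockout it measured 0.110, 0.0362, 0, 22.0 and 15.3 FPKM after sham surgery and 0, 0.0275, 0.150, 0.251 and 0.310 after ligation. High values were seen in sham libraries with Xist, and after ligation no library reached 0.75 FPKM. The fall in wild type over all libraries just passed the test (-3.46 ± 1.33, limma adjusted p = 0.0499). In the libraries with Y-linked transcripts alone, which were at or near 0 in both groups, the difference was 0.17 (adjusted p = 0.658).

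**Figure D4:**
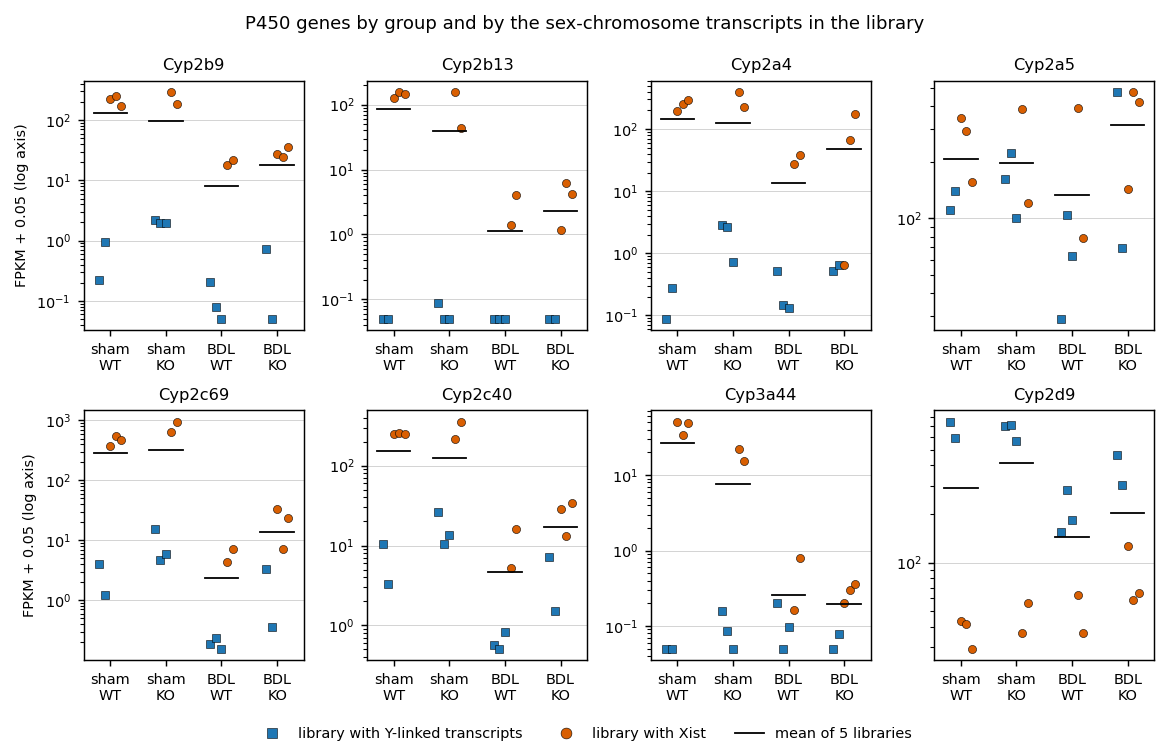
FPKM + 0.05 (log axis) of 8 P450 genes by group, with 1 point per library and a line at the mean of 5 libraries. Squares are libraries with Y-linked transcripts and circles are libraries with Xist; Cyp2b9, Cyp2b13, Cyp2a4, Cyp2c69, Cyp2c40 and Cyp3a44 are high in sham libraries with Xist and lower in their ligated counterparts, Cyp2d9 is high in sham libraries with Y-linked transcripts, and the library types overlap for Cyp2a5 in 3 of the 4 groups.

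Cyp2d9 and Cyp2u1 were higher in the sham libraries with Y-linked transcripts. Cyp2d9, a testosterone hydroxylase, measured 744, 593, 43.7, 41.9 and 29.3 FPKM in sham wild type and 154, 282, 182, 63.0 and 36.6 in ligated wild type, and 703, 711, 564, 36.5 and 56.4 after sham surgery and 461, 302, 127, 58.9 and 64.9 after ligation in the knockout. Libraries with Y-linked transcripts were high in every group, and their wild-type mean went from 668 to 206 FPKM with ligation while that of the libraries with Xist went from 38.3 to 49.8. Cyp2u1, which hydroxylates long-chain fatty acids, measured 8.55, 4.70, 1.26, 0.638 and 0.724 FPKM in sham and 1.18, 0.940, 0.864, 0.652 and 0.655 in ligated wild type, and 6.15, 3.73, 4.82, 0.679 and 1.33 after sham surgery and 0.764, 1.98, 0.420, 1.11 and 0.749 after ligation in the knockout. Its 2 or 3 higher values in each sham group came from libraries with Y-linked transcripts.

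After ligation fewer genes separated by library type. In both ligated groups 6 of 40 were higher in all libraries with Xist, Cyp2a4, Cyp2b9, Cyp2b10, Cyp2b13, Cyp2c40 and Cyp2c69, against 0.718% of all genes tested, and 1, Cyp2d9, was higher in all libraries with Y-linked transcripts, against 0.925%. The sham and ligated counts were not tested against each other. A fit with a mean for each group and library type, added after the data were seen, gave the ligation difference within each type. In libraries with Xist 16 of 40 genes were lower in wild type and 10 in the knockout, against 5.5% and 5% of all genes. In libraries with Y-linked transcripts 17 and 8 were lower, against 11% and 3.5%. No gene of the 40 was called higher in these 4 comparisons (limma count 0, against 6.84%, 4.82%, 11.7% and 3.78% of all genes), in which 23, 21, 25 and 18 genes passed at unadjusted p under 0.05 in that order.

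In this fit the largest falls in wild-type libraries with Xist were those of Cyp2c69 (-6.27 ± 0.68, limma adjusted p = 9.52e-05), Cyp3a44 (-5.66 ± 0.26, 1.45e-08), Cyp2b13 (-5.63 ± 0.52, 3.85e-05), Cyp2c40 (-4.69 ± 0.61, 4.37e-04) and Cyp2b9 (-3.41 ± 0.34, 4.87e-05). The same 5 genes fell in knockout libraries with Xist, with -5.41 ± 0.68, -4.68 ± 0.26, -4.49 ± 0.52, -3.54 ± 0.61 and -2.98 ± 0.34. The genes that fell in wild-type libraries with Y-linked transcripts included Cyp2d9 (-1.73 ± 0.36, adjusted p = 0.00365) and Cyp2u1 (-2.20 ± 0.33, 4.75e-04), which were not called over all libraries. Cyp2e1, Cyp1a2, Cyp2f2, Cyp2j5, Cyp2c29, Cyp2c37, Cyp2c40, Cyp2c50, Cyp2c54, Cyp2c69 and Cyp2d40 were called lower in wild type in both library types.

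The test of the difference between library types, averaged over both genotypes, called 6 genes, 5 of them with a larger fall in libraries with Xist (0.192% of all genes tested) and 1 with a larger fall in libraries with Y-linked transcripts (0.142%). The 5 were Cyp3a44, Cyp2b13, Cyp2c69, Cyp2a22 and Cyp2b9, with differences from -5.21 to -1.95, and the 1 was Cyp2d9 (1.84 ± 0.36, limma adjusted p = 0.0427). Each of these genes was higher in the sham libraries of the type in which it fell more, and near the floor of measurement or low in the other type. Low values leave little room for a fall of log2(FPKM + 0.5). For the 5 genes the test therefore cannot show that ligation acted differently by type. In wild-type libraries with Y-linked transcripts Cyp2c69 was still called lower, from a mean of 2.58 to 0.142 FPKM. In knockout libraries with Y-linked transcripts Cyp2b9 was called lower, from 1.99 to 0.338 FPKM. The wild-type mean of Cyp2b9 went from 0.533 to 0.0621 FPKM with Y-linked transcripts and from 216 to 19.8 with Xist. Among sham libraries with Xist, Cyp3a44 was lower in the knockout, at 22.0 and 15.3 FPKM against 50.9, 33.6 and 48.4 in wild type, the single gene of the 40 called in that comparison, where 0.377% of all genes tested were lower.

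The enzymes that supply electrons and heme, and the factors that regulate P450 genes, were read from lists drawn up with earlier results of these data known. Of 7 redox partner genes 5 fell with ligation in wild type, Cyb5a, Cyb5b, Cyb5r3, Fdx1 and Pgrmc1, and 1, Pgrmc1, in the knockout. The median was -0.59 in wild type and -0.25 in the knockout. The reductase gene Por was not called, at 0.24 ± 0.49 and 0.67 ± 0.49. Rescaled to TPM, 3 of the 7 were called lower in wild type and 0 in the knockout. In the ligated groups Cyb5b, encoding the outer mitochondrial cytochrome b5, was higher in the knockout (0.84 ± 0.19, limma adjusted p = 0.0115), and this call was lost under TPM.

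Of 12 genes of heme synthesis and breakdown 7 fell and 1 rose in wild type. Among the genes that fell were Urod and Cpox, coproporphyrinogen oxidase, at -1.20 ± 0.18 (limma adjusted p = 5.41e-05), and the gene that rose was the heme oxygenase gene Hmox1 at 1.79 ± 0.25 (2.74e-05). In the knockout Cpox, Urod and Uros fell and Hmox1 rose, at 1.53 ± 0.25. Alas1, the rate-limiting step of heme synthesis, was not called, at 0.14 ± 0.56 and -0.31 ± 0.56. Rescaled to TPM, 2 of the 12 fell in wild type, Cpox and Urod, and Hmox2 joined Hmox1 as higher in both genotypes.

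Of 17 measured xenobiotic receptors and liver transcription factors 7 fell and 2 rose in wild type, and 5 fell and 2 rose in the knockout. Cebpa (-0.93 ± 0.18 and -0.77 ± 0.18), Ppara (-1.07 ± 0.20 and -0.89 ± 0.20), Foxa1 and Foxa2, factors of hepatocyte identity or fatty acid metabolism, were among those that fell in both genotypes. Nr3c1, the glucocorticoid receptor, and Rxra fell in wild type. Nfe2l2, an oxidative stress factor gene, rose in wild type. Arnt, the partner of AHR, rose in both genotypes, and Ahr rose in the knockout (0.84 ± 0.23, limma adjusted p = 0.0115). The genes of PXR, CAR, FXR and HNF4A were not called in either genotype in the fit over all libraries of FPKM values, with wild-type differences of 0.33 ± 0.15 for Nr1i2, -0.95 ± 0.39 for Nr1i3, -0.35 ± 0.17 for Nr1h4 and -0.25 ± 0.18 for Hnf4a. Without BDL_KO_2359 and BDL_KO_2248, 10 of the 17 fell in the knockout, Hnf4a, Nr1i3 and Nr1h4 among them, and in that fit 9 fell in wild type, Hnf4a and Nr1i3 among them. Rescaled to TPM, 2 fell in wild type, Cebpa and Ppara, and 4 rose, Nr1i2, Nfe2l2, Ahr and Arnt.

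Of 9 regulators known for sex-biased transcription in liver, Ghr, the growth hormone receptor, fell in wild type (-1.48 ± 0.19, limma adjusted p = 1.10e-05) and in the knockout (-0.78 ± 0.19, 0.00522). Stat5b, which relays the growth hormone signal, and Igf1, its secreted target, fell in wild type, at -0.58 ± 0.10 and -0.58 ± 0.16, and these 2 calls were lost under TPM. After ligation Igf1 was higher in the knockout (0.54 ± 0.16, adjusted p = 0.0385), a call lost under TPM and without BDL_KO_2359 and BDL_KO_2248.

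The other P450 families were measured in the same fit. Of 25 measured genes, 13 fell and 3 rose with ligation in wild type and 14 fell and 4 rose in the knockout, with medians of -0.69 and -0.84. Their summed level was 1266 to 2169 FPKM in sham and 434 to 908 in ligated wild type. Genes that rose were among them, including the sterol demethylase gene Cyp51 (0.75 ± 0.22 and 1.29 ± 0.22) and Cyp4f18, a leukotriene hydroxylase gene of myeloid cells (2.17 ± 0.31 and 1.48 ± 0.31). Rescaled to TPM, 9 fell and 4 rose in each genotype. The difference between the families was not tested.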

How the data were processed

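The authors deposited 1 table of FPKM values (fragment counts scaled by gene length and library size) for 20 mouse liver libraries. Per the labels' protocols, TRIzol was used for RNA extraction and the VAHTS Universal V6 kit for library preparation. The submitters' processing notes name CASAVA 1.8, fastp, HISAT2 2.0.5, featureCounts 1.5.0-p3, DESeq2 1.20.0 and the builds GRCm38 and mm10, without their roles; DESeq2 was not used here. Groups came from the sample titles. 1 further gene of these families, and some genes of the other lists, are not reported here by name.

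Tests used limma 3.58.1 (R 4.3.3) on log2(FPKM + 0.5) of the 14059 genes that reached 0.5 FPKM in 5 or more libraries. The fit had 1 mean per group over all 20 libraries and a trended, robust moderation, with Benjamini-Hochberg adjustment over all genes tested at 0.05. A log2 difference of values with a pseudocount understates the change of low genes. The script was tested on simulated data. Depth came from FPKM and GENCODE M21 exonic lengths, which gave whole fragments (within 0.02) for 98.3% to 98.8% of values. Assigned totals were 86.9% to 134% of the library size by which FPKM were scaled. Library types were read from Y-linked transcripts and Xist.

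Values in every library are given for the most abundant gene of each subfamily with a mean of at least 1 FPKM and for the 5 called genes with the largest change in each direction of each pairwise comparison; other genes are named with differences, or after their values were seen (Cyp2d9 and Cyp2j9). The genes and lists were chosen with earlier results of these data known. Alternatives covered pseudocounts of 0.1 and 1, filters, TPM, total fragments, quantile normalization, library type, other sets of libraries, and voom on recovered fragments.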

Additional observations from a re-analysis of the deposited data

Results flagged for a closer look

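Each of 32 genes chosen by the naming rule was examined in each group of 5 libraries for 1 library far from the other 4, over 128 groups, and chance marks about 1 in 20 groups. There were 6. In Sham_KO_2352, a library with Xist, Cyp2a22 measured 47.9 FPKM against 0.577 to 6.05 in the other 4 libraries, and Cyp2b13 measured 156 FPKM against 0 to 43.5. In BDL_Wt_2237, also with Xist, Cyp2a5 measured 389 FPKM against 28.9 to 103.7. In BDL_Wt_2240, the other ligated wild-type library with Xist, Cyp2c55 measured 2.91 FPKM against 0.734 to 1.33 and Cyp3a44 measured 0.739 FPKM against 0 to 0.1499. In BDL_Wt_2233, with Y-linked transcripts, Cyp2r1 measured 3.64 FPKM against 4.95 to 5.40.

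For 6 genes the limma test called a difference between library types in the log2 response to ligation. This difference was taken as libraries with Xist minus libraries with Y-linked transcripts. It was -5.21 for Cyp3a44, -5.05 for Cyp2b13, -3.70 for Cyp2c69, -3.01 for Cyp2a22, -1.95 for Cyp2b9 and 1.84 for Cyp2d9. The 5 genes with negative values were near the floor of measurement or low in sham libraries with Y-linked transcripts. Low values leave little room for a fall, so for these 5 genes the test cannot show that ligation acted differently by type.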

How the results depend on the processing

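No paired analysis was possible because each library carries its own number and the groups share none. The number of genes called with ligation was 16 to 23 in wild type and 11 to 12 in the knockout when each library was left out in turn, 0 to 1 for the knockout after sham surgery, 2 to 14 for the knockout after ligation and 0 to 2 for the interaction. With libraries with Xist alone 13 genes were called for ligation in wild type, where 466 of all 14059 genes tested were higher and 445 lower. With libraries with Y-linked transcripts alone 7 were called in the knockout, where 590 of all genes were higher and 482 lower. These fits hold fewer libraries. A mean for each group and library type, chosen after seeing the data, gave 21 in the knockout, where 1506 of all genes were higher and 1574 lower. After sham surgery 1 gene, Cyp2j9, was called under TPM, total fragments, a fit of only the groups compared, and without BDL_KO_2359 and BDL_KO_2248. In that order, these fits called 22, 45, 334 and 439 of all genes higher and 186, 142, 487 and 602 lower. After ligation the knockout calls were 3 without a filter, 0 with only the groups compared, 1 in libraries with Y-linked transcripts and 0 in those with Xist. Without a filter 235 of all 29346 genes were higher and 624 lower. The interaction had 1 call under quantile normalization, library type as a covariate and a mean for each group and type. In that order, these fits called 30, 26 and 10 of all genes higher and 37, 26 and 5 lower.

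Cyp3a44 with ligation in wild type turned to 0.17 in libraries with Y-linked transcripts. The log2 change of the Cyp2d total in wild type was -1.16 in libraries with Y-linked transcripts and -0.48 under TPM. That of the Cyp3a total was 0.17 under TPM, 0.13 with Xist libraries alone and -0.39 with Y-linked libraries alone, and in the knockout 0.27 with Xist libraries alone. Windows of 50 bases gave 24 genes over 10% shared and windows of 150 bases gave 3. Called under each alternative run were 6 of the 20 wild-type genes (Cyp2c29, Cyp2c37, Cyp2c50, Cyp2d40, Cyp2e1 and Cyp2f2), 2 of the 12 knockout genes (Cyp2c37 and Cyp2d40) and 0 of the 5 called after ligation. Adjusted p over the alternatives ranged from 0.000247 to 0.322 for Cyp2c29 and from 0.00615 to 0.753 for Cyp1a2 in that comparison. The cause of these changes was not tested. The interaction has no fit of only the groups compared, since it needs all 4.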
